A study of Mus musculus with 3 samples.

Results

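Newly forming oligodendrocytes are the short stage between a committed precursor and a myelinating cell. A precursor that leaves the cell cycle loses Pdgfra and proteoglycans such as versican, passes through a phase marked by the receptor Gpr17 and by Bcas1, and then switches on Enpp6, a choline-specific phosphodiesterase that is low in both earlier and later cells. Transcription factors such as Tcf7l2 and Myrf act around this step, and the myelin proteins of the mature cell, such as Mog and Mag, follow it.

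Nuclei of this stage were taken from single-nucleus RNA libraries of mouse neurosphere cultures by their raw counts of unique molecular identifiers (UMIs, 1 for each captured RNA molecule). A nucleus was included when it held at least 2 UMIs of Enpp6, at least 8 of Bcas1, Gpr17 and Enpp6 together, under 4 of Mog, Mag, Mobp and Ermn together, and under 3 of the cell cycle genes Top2a, Mki67, Kif11 and Knl1 together. This gave 547 of 12549 nuclei, of which the control library gave 169, the library with CBP ablated 285 and that with p300 ablated 93. Values given in threes below follow that order. Since measured values chose the nuclei, the levels of these 11 genes are descriptions and support nothing.

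The neurospheres were grown from the subventricular zone, a stem cell niche of the postnatal mouse brain, and were studied to learn what the paralogous lysine acetyltransferases CBP (gene Crebbp) and p300 (gene Ep300) do in neural differentiation. The CBP-ablated library carries the genotype CBPf/f and the p300-ablated library the genotype p300f/f, in each case with Cre, and the line of mice behind the control library is not stated. The libraries are named here by their labels, and within the newly forming nuclei neither gene's RNA was lower in its own library. The labels of all 3 libraries give tamoxifen as the treatment, while the methods describe lentiviruses that carry Cre with mCherry or, for the control, a red fluorescent protein. Each library is a pool of about 15 cultures harvested at day 15, from which fluorescent nuclei were sorted and 16000 loaded. There is 1 library per condition, so no test between conditions was possible, and every interval below is a 95% interval of counting error only, without the variation between cultures.

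The 169 control nuclei held 830530 UMIs, the 285 CBP-ablated nuclei 1495377 and the 93 p300-ablated nuclei 501072. Their median depths were 4618, 5092 and 5442 UMIs per nucleus, against 3219, 4016 and 3902.5 in the whole libraries of 4884, 3017 and 4648 nuclei. No nucleus of the stage shared its cell barcode with a nucleus of another library, although the libraries shared 3, 7 and 1 barcodes in pairs. A doublet caller marked 17, 10 and 4 of these nuclei (10.1%, 3.51% and 4.30%), which were kept. Without them 59 genes were at least 2-fold higher and 71 lower in the CBP-ablated nuclei, and 14 and 9 in the p300-ablated nuclei, against the counts given below.

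The stage carried the genes that its name calls for. Levels were computed as the summed UMIs of a gene in the nuclei of a stage, per 1000000 UMIs of all genes (CPM), and were set beside 3 neighbouring stages built by similar rules: precursors with at least 3 UMIs of Pdgfra, early committed nuclei that met every criterion except that for Enpp6, and mature nuclei with at least 4 UMIs of the 4 late genes. Of 6 markers of newly forming cells, all 6 were highest in the newly forming stage of both ablated libraries, and 5 in the control. Only Enpp6 was used by the rule, and clusters or stages cut from the same nuclei are not an independent test of the others.

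Enpp6 (chr8:46986887-47096762, GRCm38) stood at 1027, 1018 and 952 CPM in newly forming nuclei, and at 215, 129.6 and 179 CPM in mature nuclei. Frmd4a (chr2:4017717-4614043), a FERM-domain scaffold protein, stood at 10001, 5714 and 8388 CPM, against 1585, 1266 and 866 in early committed and 3519, 1243 and 2673 in mature nuclei. Trpc4 (chr3:54156035-54318471), a cation channel, stood at 132, 152 and 198 CPM, against 22.5, 29.8 and 27.7 in early committed nuclei. These 3 genes peaked in the same stage in each library.

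Ddc (chr11:11814101-11898144), which encodes aromatic amino acid decarboxylase, was at 54.2, 95.6 and 49.9 CPM in newly forming nuclei. Grm7 (chr6:110645581-111567230), a metabotropic glutamate receptor, was at 1895, 3792 and 1828 CPM. Lpar1 (chr4:58435255-58553898), a receptor for lysophosphatidic acid, was at 42.1, 122 and 93.8 CPM, and in the control library it was higher in mature nuclei, at 72.3 CPM. Lpar1 is thus the 1 marker whose peak was not in the newly forming nuclei of every library.

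The bases before the start of Enpp6 and Trpc4 are shown because these are the 2 markers with a single start listed. They are the 250 bases upstream of the start on the + strand of GRCm38.p6, from RefSeq, and capitals mark the letters ACAANG, the core that SOX factors such as Sox10 recognise, searched on both strands.
Enpp6, chr8:46986637-46986886: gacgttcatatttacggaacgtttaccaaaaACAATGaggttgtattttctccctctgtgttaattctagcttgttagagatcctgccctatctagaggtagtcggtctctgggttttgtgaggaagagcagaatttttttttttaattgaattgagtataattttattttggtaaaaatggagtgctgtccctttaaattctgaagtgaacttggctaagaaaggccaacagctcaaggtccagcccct
Trpc4, chr3:54155807-54156056: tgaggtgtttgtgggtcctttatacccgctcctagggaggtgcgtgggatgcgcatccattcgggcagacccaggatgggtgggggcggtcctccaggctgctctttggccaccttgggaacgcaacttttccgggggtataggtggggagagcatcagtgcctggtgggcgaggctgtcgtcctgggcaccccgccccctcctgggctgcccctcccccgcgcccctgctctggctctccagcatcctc
The Enpp6 window held 1 match, which begins 219 bases before the start, and the Trpc4 window held 0. Over all 6 markers, whose genes have 13 listed starts, 6 windows held the letters, and of 32851 such windows of mouse genes 36.3% did. A match is a description of letters and not a binding site.

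Genes outside the markers also stood out in the stage. When genes were ranked by their smallest log2 ratio over early committed and mature nuclei in the 3 libraries, the leading 10 included D430041D05Rik, Trpc4, Frmd4a, Rasgef1b, Pdgfa, Gm29571, Snx18, Rinl and Pdcd4. D430041D05Rik stood at 938, 1445 and 932 CPM in newly forming nuclei and at 287, 178 and 134 CPM in mature nuclei. Pdgfa, the ligand of the receptor that marks precursors, stood at 63.8, 87.6 and 61.9 CPM, against 20.2, 33.0 and 22.3 in early committed and 19.7, 14.7 and 18.7 in mature nuclei. Pdcd4, an inhibitor of translation, stood at 708, 449 and 669 CPM, against 63.5, 59.3 and 57.8 in mature nuclei.

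Of 3961 genes that held 100 UMIs or more in newly forming nuclei, summed over the 3 libraries, 105 were at least 2-fold higher than in early committed nuclei in every library and 70 at least 2-fold lower. Within single libraries 4.34%, 4.06% and 7.3% of genes were that much higher and 3.23%, 4.09% and 5.96% lower. Against mature nuclei 344 genes were 2-fold higher in every library and 185 lower, with 15.4%, 11.6% and 13.6% higher and 7.6%, 6.64% and 8.63% lower within single libraries. Against precursors 351 were higher and 228 lower, with 12.2%, 11.4% and 12% higher and 8.05%, 9.39% and 9.06% lower. The rule bears on these counts, since early committed nuclei met every criterion but that on Enpp6 while the other stages were cut on further markers, and the limit on UMIs in newly forming nuclei leaves out genes that were low there, so the counts do not rank the stages by likeness.

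The transcription factors of the lineage did not move as 1 group across the stages. Sox10, which is active throughout the lineage, was at 592 CPM in control newly forming nuclei and at 297, 496 and 389 CPM in control precursor, early committed and mature nuclei. Tcf7l2, an effector of Wnt signalling, peaked in the newly forming stage of each library, at 2698, 3982 and 3109 CPM. Myrf, which drives myelin genes, was at 116, 169.9 and 119.7 CPM and was higher again in mature nuclei, at 163, 174 and 143 CPM. St18 and Zfp536 were far below their mature levels. Zfp536 was at 301, 462 and 587 CPM, against 3126, 3088 and 3561 in mature nuclei, and St18 was at 1303, 1249 and 1333 CPM, against 4001, 3339.8 and 4476 CPM.

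Precursor genes were partly retained and myelin genes partly present. The 20 genes of the precursor list, which holds the Pdgfra that defined the precursor stage, summed to 31760, 24877 and 35674 CPM in newly forming nuclei, between the 54091, 51913 and 57331 CPM of precursors and the 5823, 5450 and 7652 CPM of mature nuclei. Tnr, a matrix protein on that list, was not lower than in precursors: it stood at 12986, 11480 and 13738 CPM, against 6709, 5446 and 7334 CPM. Myelin and late genes, without the 4 of the rule, summed to 11622, 16851 and 10721 CPM, against 38718, 45890 and 40699 CPM in mature nuclei. Tmeff2 alone gave 5412, 9022 and 5165 CPM of the sums in newly forming nuclei, so these sums largely follow 1 gene.

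**Figure D1:**
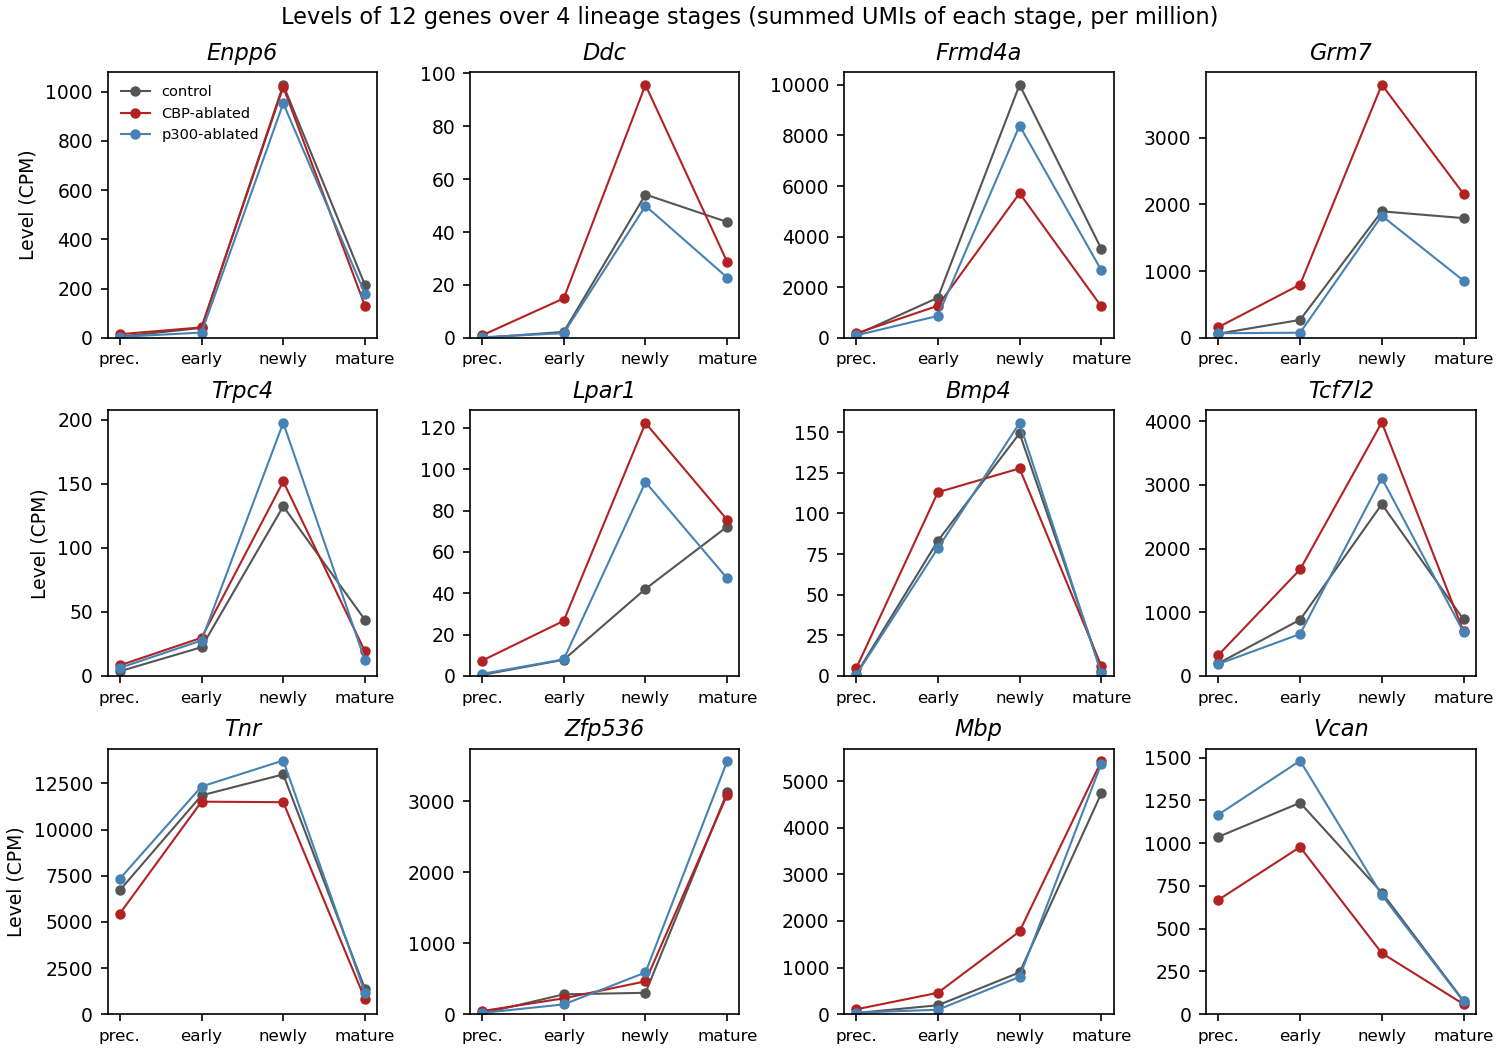
Level in CPM (vertical axes, linear from 0) of 12 genes in the nuclei of 4 lineage stages (horizontal axes) of the control, CBP-ablated and p300-ablated libraries, 1 point for the summed UMIs of each stage and library. Enpp6, Frmd4a and Trpc4 peak in newly forming nuclei of each library, Mbp and Zfp536 are highest in mature nuclei, and Vcan is lower in newly forming than in early committed nuclei.

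How many nuclei were in the stage differed between the libraries. They made up 3.46% of the control nuclei (Clopper-Pearson interval 2.97 to 4.01). With CBP ablated they made up 9.45% (8.43 to 10.5), and with p300 ablated 2.0% (1.62 to 2.45). The CBP-ablated share was 5.99 percentage points above the control (Newcombe interval 4.85 to 7.18) and the p300-ablated share was lower, by a difference of -1.46 points (-2.12 to -0.808). None of the 3 intervals of the shares overlapped.

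Because the rule counts raw UMIs and the libraries differ in depth, each nucleus was also thinned to 3000 UMIs, which kept 2883, 2371 and 3531 nuclei. The shares were then 4.65%, 9.41% and 2.04%, in the same order. Among nuclei with 4000 to 6000 UMIs, a range chosen after the data were seen, they were 10.8%, 15.8% and 2.59%. The sort by fluorescence may also have set which nuclei were loaded, and its part in the shares was not tested.

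Shares of a whole library also depend on what else it holds, so the stage was set against the 1085, 1382 and 1689 nuclei of the 4 lineage stages. It made up 15.6%, 20.6% and 5.51% of these (intervals 13.5 to 17.9, 18.5 to 22.9 and 4.47 to 6.70). The CBP-ablated share was 5.05 points above the control (1.98 to 8.05), and the difference for the p300-ablated share was -10.1 points (-12.6 to -7.71). Precursors made up 49.0%, 21.5% and 68.6% of lineage nuclei, early committed nuclei 19.7%, 21.3% and 14.2%, and mature nuclei 15.7%, 36.6% and 11.8%. As a share of all nuclei, the early committed stage was 5.36 points above the control with CBP ablated (4.18 to 6.60). With p300 ablated it was 0.76 points above (-0.09 to 1.62).

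**Figure D2:**
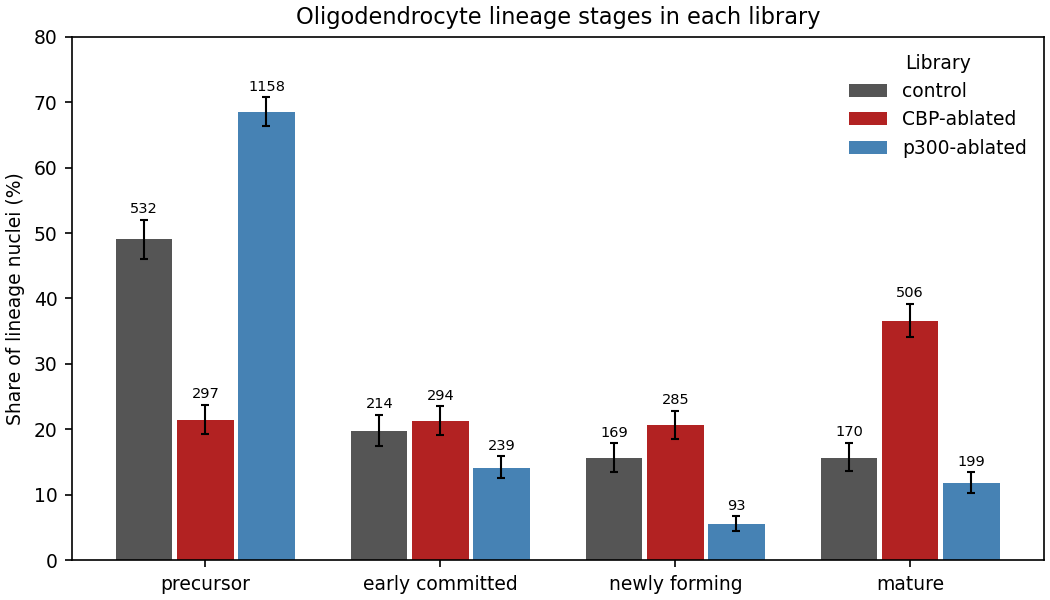
Share of lineage nuclei (vertical axis, percent) in each of 4 stages (horizontal axis) for the 3 libraries, with Clopper-Pearson 95% intervals as error bars and the number of nuclei above each bar. The newly forming stage holds 169, 285 and 93 nuclei and is the smallest of the 4 stages in each library.

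Nuclei at the edges of the rule were as follows. Nuclei with 1 UMI of Enpp6 that met the other criteria numbered 36, 54 and 24, and their Frmd4a level was 3738, 3103 and 2513 CPM, against 5909, 4052 and 6869 CPM in nuclei with 2 or 3 UMIs of Enpp6. Nuclei left out for 4 to 6 UMIs of the late genes numbered 12, 18 and 10, with Mbp at 4403, 3171 and 3522 CPM, against 2019, 2825 and 1428 CPM in nuclei just inside with 2 or 3. Gpr17, although part of the rule, was at 0 UMIs in 70.4%, 73.7% and 76.3% of the newly forming nuclei, while the median of Bcas1 was 25, 26 and 32 UMIs per nucleus and that of Enpp6 5, 5 and 4.

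The stage was not uniform. With its nuclei grouped by their UMIs of Mog, Mag, Mobp and Ermn, 66.9%, 46.7% and 62.4% of the nuclei held none (intervals 59.2 to 73.9, 40.8 to 52.6 and 51.7 to 72.2). Nuclei with 2 or 3 of these UMIs made up 18.3%, 24.6% and 15.1%. The CBP-ablated nuclei thus held more late-gene UMIs, a difference in a raw count that the rule itself bounds. Median depths were 4618, 5092 and 5442 UMIs. Myelin and late genes outside the rule summed to 4926, 15597 and 5411 CPM in the whole libraries. The part of depth, or of RNA from other nuclei, in this count was not tested.

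Several genes that the rule did not use were graded along this count. Mbp, a main myelin protein, was at 392, 1387 and 2019 CPM in control nuclei with 0, 1, and 2 or 3 late UMIs, at 1003, 2047 and 2825 CPM in CBP-ablated nuclei, and at 556, 972 and 1428 CPM in p300-ablated nuclei. Zfp536 went from 66.6 to 500.0 and 844 CPM in the control, and Frmd4a from 5659.8 to 13088 and 20470 CPM. Vcan, the versican of the precursor matrix, went the other way, from 891 to 452 and 369.7 CPM in the control, from 481 to 287 and 218 CPM in the CBP-ablated, and from 981 to 277 and 313 CPM in the p300-ablated nuclei. Enpp6 itself stayed between 916 and 1185 CPM in all 9 groups.

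**Figure D3:**
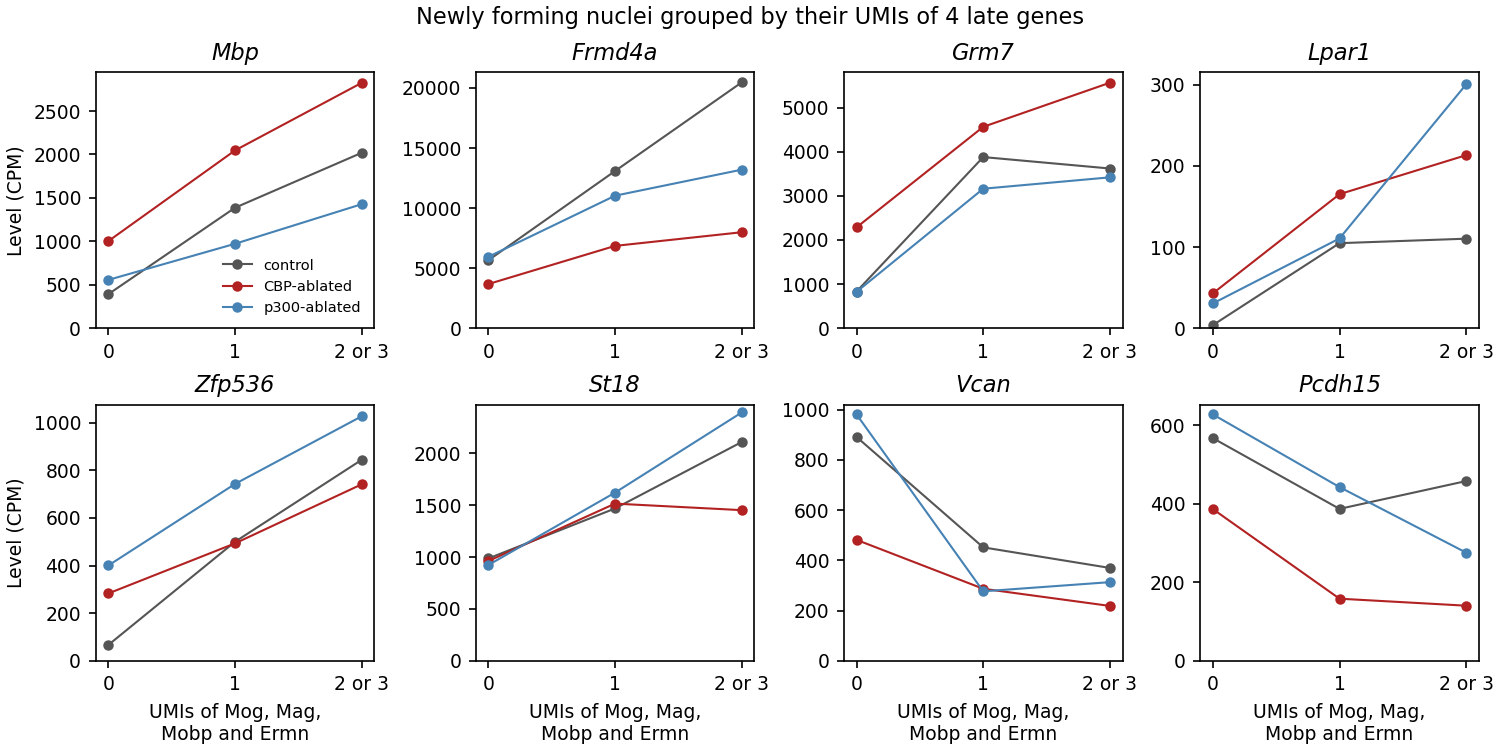
Level in CPM (vertical axes, linear from 0) of 8 genes in newly forming nuclei that held 0, 1, and 2 or 3 UMIs of Mog, Mag, Mobp and Ermn (horizontal axes), 1 line per library. Mbp, Frmd4a, Lpar1 and Zfp536 are higher with more late UMIs in all 3 libraries and Vcan is lower in the groups with late UMIs, while Mbp is highest in the CBP-ablated nuclei and Frmd4a lowest in them in every group.

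Within the newly forming nuclei, 4 of 15 measured precursor genes were at least 2-fold lower in the CBP-ablated library than in the control and 1 of 14 measured myelin genes at least 2-fold higher. Of 3466 genes that held 100 UMIs or more over both libraries, 43 were at least 2-fold higher (1.24%) and 83 at least 2-fold lower (2.39%). The median log2 ratio of all these genes was 0.11, and with ratios centred on it the counts were 34 and 117. The gene lists below were compiled with earlier results of these data known, and some of their genes (Mbp, Tcf7l2, Sox6, Sox10, Sema3d and astrocyte markers among them) were singled out by the study on the same libraries, so that their direction is not independent evidence.

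All 15 precursor genes with enough UMIs were lower in the CBP-ablated nuclei, 4 of them past 2-fold, with a median log2 ratio of -0.78. Over all genes 1305 of 3466 were below 0. Neu4, a sialidase, went from 86.7 to 26.1 CPM (log2 ratio -1.73, interval -2.33 to -1.15). Sema3d, a secreted guidance protein, went from 692 to 289.6 CPM (-1.26, -1.44 to -1.08), Megf11 from 98.7 to 42.8 CPM (-1.21, -1.70 to -0.72), and the protocadherin Pcdh15 from 517 to 257 CPM (-1.01, -1.21 to -0.81). Sox6, a transcription factor of precursors, was among the nearest to the control, at 3336 and 3104 CPM (-0.10, -0.17 to -0.04). Weighting the CBP-ablated nuclei to the control's shares of late-UMI groups left the median at -0.64, and without called doublets it was -0.78. With at least 3 UMIs of Enpp6 the median was -0.51.

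Of 14 myelin and late genes outside the rule, 12 were above 0, 1 of them past 2-fold, with a median of 0.37, while over all genes 2161 of 3466 were above 0. Rnf220, a ubiquitin ligase, went from 77.1 to 220.0 CPM (log2 ratio 1.51, interval 1.12 to 1.92). Its ratio was nearer the 2-fold limit with at least 3 UMIs of Enpp6 (1.06), with under 2 late UMIs (1.07) and with 10% free RNA subtracted (1.01). Mbp went from 896 to 1775 CPM (0.99, 0.87 to 1.11). Its ratio was 0.84 without called doublets, 0.83 with nuclei weighted to the control's late-UMI groups and 0.74 with at least 3 UMIs of Enpp6. Among nuclei with under 2 late UMIs it was 1.28, past 2-fold. The tight junction protein Cldn11 went from 163 to 255 CPM (0.65, 0.36 to 0.94), and Tmeff2 from 5412 to 9022 CPM (0.74, 0.69 to 0.79). Ninj2 was at -0.52 and Enpp2 at -0.48. The summed level of the 26 listed genes outside the rule was 11622, 16851 and 10721 CPM in newly forming nuclei and 4926, 15597 and 5411 CPM in the whole libraries, with Tmeff2 the most abundant in newly forming nuclei of each, and the part of RNA from other nuclei in these ratios was not tested.

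The list of newly formed genes split. Of 26 measured members, 3 were past 2-fold and all 3 were higher, where 1.24% of all genes were higher and 2.39% lower. The list's median was 0.11, the same as over all genes. Lpar1 went from 42.1 to 122 CPM (log2 ratio 1.54, interval 1.01 to 2.10), the mannosidase Man1a from 63.8 to 163 CPM (1.35, 0.92 to 1.81) and Grm7 from 1895 to 3792 CPM (1.00, 0.92 to 1.08). Grm7 lay at the limit and fell below it under several alternatives, for example at 0.89 after centring and 0.85 with nuclei weighted to the control's late-UMI groups. Frmd4a was lower (-0.81, -0.85 to -0.76), and so were the Rac regulator Chn2, from 1598 to 911 CPM (-0.81, -0.92 to -0.70), and the kinase Fyn, from 3228 to 2495 CPM (-0.37, -0.44 to -0.30). Bmp4 and Itpr2, both typical of this stage, had intervals that included 0.

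Among the 10 largest ratios were Slit2, a secreted axon guidance ligand, from 45.8 to 163 CPM (log2 ratio 1.83, interval 1.33 to 2.36), and Nkain2, which encodes a partner of the sodium pump, from 2323 to 6839 CPM (1.56, 1.49 to 1.63). Among nuclei with under 2 late UMIs the ratio of Slit2 was 2.98. The others were Plcl2, Gm32531, Egfem1, Tspan9, Tns1, Lpar1, Spag5 and Gm3417, between 1.52 and 1.82. Gm3417 was at 0.77, no longer past 2-fold, when 1 UMI of Enpp6 sufficed and at 2.56 with at least 3. With 10% free RNA subtracted Tspan9 was at 3.30 and Egfem1 at 2.43. They held 20 and 31 control UMIs before subtraction, so these sizes are not reliable. Among nuclei with under 2 late UMIs Tns1 was at 2.57. Kcnd2, a potassium channel subunit on the receptor and channel list, went from 562 to 1466 CPM (1.38, 1.24 to 1.53), and its ratio was 1.80 without called doublets, 2.09 with free RNA subtracted and 1.17 with at least 3 UMIs of Enpp6. On that list 3 of 20 genes were past 2-fold (Kcnd2, Lpar1 and, at the limit, Grm7), all higher, where 1.24% of all genes were, and the AMPA receptor subunits went opposite ways, with Gria2 at -0.88 and Gria4 at 0.58. None of the 14 measured transcription factors was past 2-fold, and their median was 0.00, with Nfib lowest at -0.95.

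The 10 smallest ratios were those of Rbfox1, Edil3, Gpc5, Gabrg3, Nrg1, Tmem132d, Sgcd, Brinp1, Igsf21 and Adam12, from -3.02 to -1.96. Nrg1, which encodes the ErbB ligand neuregulin, went from 666 to 121 CPM (log2 ratio -2.46, interval -2.71 to -2.21). Edil3, an integrin-binding matrix protein, went from 308 to 40.1 CPM (-2.94, -3.37 to -2.53), and Sgcd, a sarcoglycan, from 418 to 93.6 CPM (-2.16, -2.45 to -1.87). For the splicing factor Rbfox1, 66 of the 274 control UMIs lay in 1 nucleus, and for Gabrg3 37 of 80. With the top nucleus of each gene left out, Rbfox1 was at -2.82 and Gabrg3 at -1.89, and both stayed past 2-fold. Without called doublets Rbfox1 was at -1.97 and Nrg1 at -2.86. With an assumed 10% of each library's overall RNA profile subtracted as free RNA, Edil3 was at -7.41, Rbfox1 at -4.33 and Sgcd at -2.97. Edil3 and Rbfox1 held 60 and 61 UMIs in the CBP-ablated nuclei before subtraction. Little was left of Edil3 there, so the size of its ratio is not reliable.

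**Figure D4:**
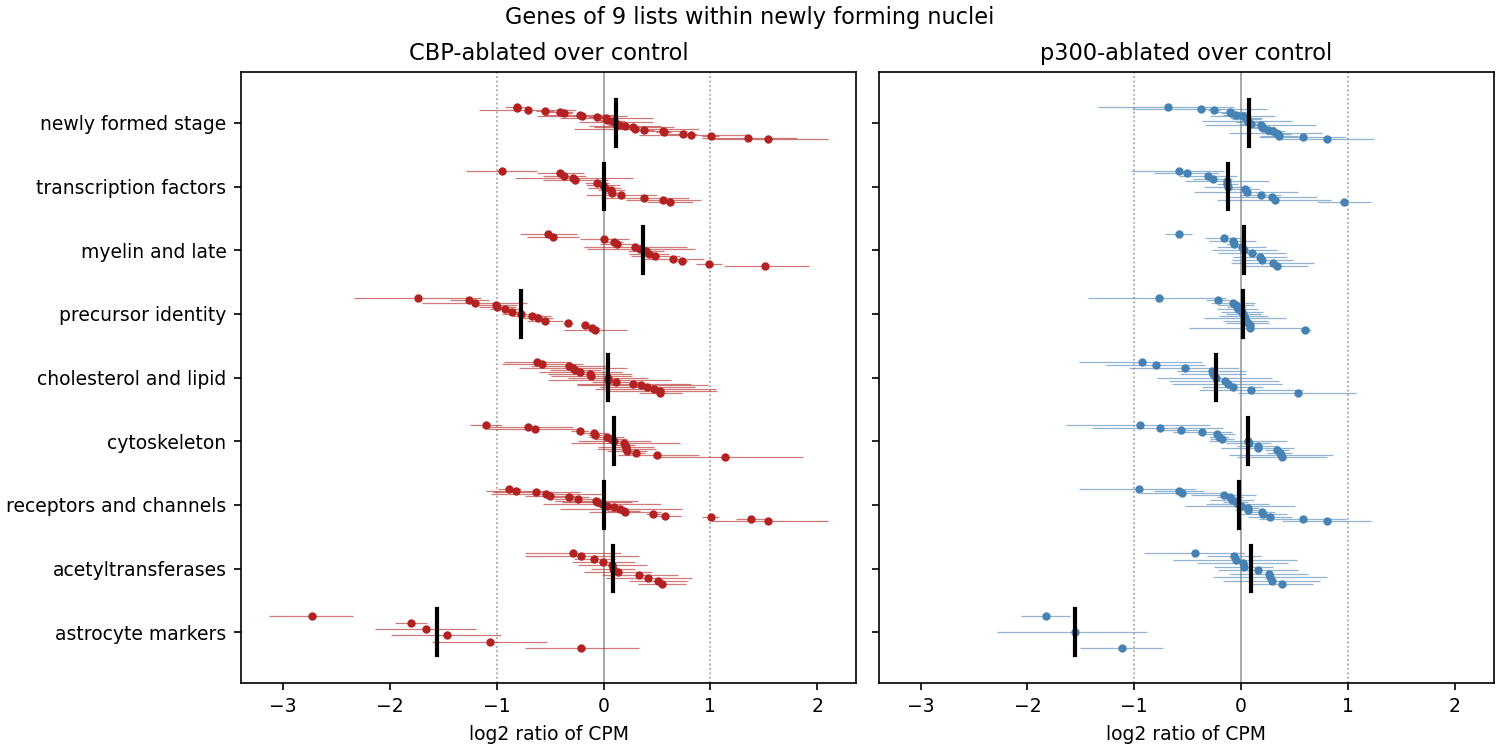
Log2 ratio of CPM in newly forming nuclei (horizontal axes) of the CBP-ablated (left) and p300-ablated (right) library over the control for the genes of 9 lists with at least 100 UMIs, 1 point per gene with its 95% counting interval, black bars at the list medians and dotted lines at 2-fold. Precursor identity genes lie below 0 on the left (median -0.78) and around 0 on the right (median 0.02), and astrocyte markers lie below 0 in both.

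Of 12 astrocyte markers, all with UMIs in the nuclei of each library, 6 held enough UMIs in the CBP comparison, and 5 of them (Gpc5, Ntm, Slc1a3, Apoe and Rorb) were at least 2-fold lower, where 83 of all 3466 genes were. In the p300 comparison 3 held enough (Ntm, Slc1a3 and Gpc5) and all 3 were at least 2-fold lower, where 13 of 2154 genes were. Aqp4, under the limit in both, was at 0.74 and 0.31. The 12 markers summed to 2150, 660 and 758 CPM in newly forming nuclei, with Ntm the most abundant at 1322, 379.2 and 373.2 CPM, while in the whole libraries their sum was 9561, 2425 and 3949 CPM. Without called doublets the control sum was 1501 CPM and the CBP-ablated and p300-ablated sums 658 and 693.4 CPM. Gpc5 was then at -1.59 over control in the CBP-ablated and at -0.37 in the p300-ablated nuclei, against -2.73 and -1.11 with them, and Slc1a3 was at -0.27 in the p300-ablated nuclei, against -1.55. With free RNA subtracted Gpc5 was at -1.56 and -0.53 in the same order, and Slc1a3 at -3.26 in the p300-ablated nuclei. Slc1a3 held 22 UMIs there before subtraction, so the size of that ratio is not reliable. How much of these differences came from RNA of other nuclei was not tested.

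Other cell types' markers summed to less than those of astrocytes. The 12 microglia markers summed to 121.6, 47.5 and 41.9 CPM, with C1qa and C1qb at 0 in both ablated libraries, and the 10 vascular markers to 7.22, 4.01 and 5.99 CPM, with at least 8 of them at 0 in each library. The neuron markers summed to 515.3, 361.1 and 369.2 CPM, of which Adarb2, also on the newly formed list, made up 404.6, 235.4 and 251.5 CPM, while Tubb3 and Slc17a6 were at 0 in all 3 libraries. Tubb3 was also at 0 in each whole library, and Slc17a6 in the whole control and p300-ablated libraries, so their zeros say nothing of neurons here. Radial glia or precursor markers summed to 400.9, 377.2 and 335.3 CPM, with Sox2 the most abundant. The neuron list's synaptic vesicle gene Syt1 was the 1 gene of these 4 lists past 2-fold in the CBP-ablated nuclei, at 24.1 and 63.5 CPM (log2 ratio 1.40, interval 0.69 to 2.17). Of its 95 UMIs in the CBP-ablated nuclei 33 lay in 1 nucleus, and without called doublets it held too few UMIs to be ranked. The part of other cell types in the ratios above was not tested.

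Within the p300-ablated newly forming nuclei no measured precursor or myelin gene was past 2-fold. Of 2154 genes that held 100 UMIs or more over both libraries, 17 were at least 2-fold higher (0.789%) and 13 lower (0.604%), with 10 and 16 after centring, and the median of all genes was 0.06. Fewer genes were measured here than for the CBP-ablated library, because the nuclei held fewer UMIs, so the 2 counts are not comparable as they stand. Both comparisons also share the control library.

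No gene of the newly formed, precursor, myelin or transcription factor lists was past 2-fold among those with enough UMIs. The precursor list had a median of 0.02, with 9 of 15 genes above 0, against 1224 of 2154 over all genes. None of the 16 measured receptors and channels was past 2-fold either (median -0.02). Lhfpl3 was the highest of the precursor genes, from 6928 to 10519 CPM (log2 ratio 0.60, interval 0.55 to 0.66). The myelin list had a median of 0.03 over 11 genes, and Mbp stood at 896 CPM in the control and 800.3 CPM in the p300-ablated nuclei (-0.16, -0.34 to 0.01). The largest value on the factor list was that of Zfp536, from 301 to 587 CPM (0.96, 0.71 to 1.21), and it was 1.75 among nuclei with under 2 late UMIs and 0.52 when 1 UMI of Enpp6 sufficed. For comparison, Zfp536 was at 462 CPM in the CBP-ablated nuclei (0.62, 0.41 to 0.83), with a ratio of 1.29 among nuclei with under 2 late UMIs and 0.33 with at least 3 UMIs of Enpp6.

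Lpar1 had 82 UMIs in the p300-ablated and control nuclei together, under the limit for ranking, at 93.8 and 42.1 CPM (log2 ratio 1.15, interval 0.49 to 1.83). Of the 11 measured genes of cholesterol and lipid synthesis, 9 were below 0, with a median of -0.24 and none past 2-fold, while over all genes 930 of 2154 were below 0. Hmgcs1, an enzyme of cholesterol synthesis, was at 132 CPM in the control and 69.9 CPM in the p300-ablated nuclei (-0.92, -1.52 to -0.36). In the CBP-ablated nuclei Hmgcs1 was at 88.9 CPM (-0.57, -0.95 to -0.20), while that list's median was 0.04.

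The 10 largest ratios of the p300-ablated nuclei were led by Tmem117, from 39.7 to 148 CPM (log2 ratio 1.89, interval 1.28 to 2.53), and Ntng2, a netrin-G membrane protein, from 80.7 to 229.5 CPM (1.51, 1.06 to 1.97). Spag5, a mitotic spindle protein, followed, from 89.1 to 235 CPM (1.40, 0.97 to 1.84), then Tnfrsf19, Sgcz, Robo2, Lrrc8c, Ubp1, Neat1 and Arhgef7, between 1.07 and 1.33. Robo2, a receptor for Slit proteins, went from 139.7 to 311 CPM (1.16, 0.80 to 1.52), with a ratio of 2.26 among nuclei with under 2 late UMIs, and the nuclear long noncoding RNA Neat1 from 406 to 870.1 CPM (1.10, 0.89 to 1.31). Of the 10 smallest ratios, Ntm, Slc1a3 and Gpc5 are astrocyte markers, and the others were Slc4a4, Vav3, Pex5l, Hsd17b7, Vwa8, Ptprk and Rnf13, between -1.58 and -1.13. Without called doublets Slc4a4 was at -0.54, Vav3 at -0.47, Vwa8 at -0.88, Robo2 at 0.94 and Neat1 at 0.98, all under 2-fold, while Tnfrsf19 was at 2.13 and Ntm at -1.49. With free RNA subtracted the ratios of Slc4a4 and Pex5l were instead larger in size, at -3.09 and -2.81. These genes held 41 and 20 UMIs in the p300-ablated nuclei before subtraction, so these sizes are not reliable. Of the 21 ratios past 2-fold followed through the alternatives, 13 came under it in at least 1 alternative (Arhgef7, Gpc5, Lrrc8c, Neat1, Pex5l, Ptprk, Rnf13, Robo2, Slc1a3, Slc4a4, Ubp1, Vav3 and Vwa8). For Pex5l, 40 of 81 control UMIs lay in 1 nucleus, and without the top nucleus of each library its ratio was -0.45, and without called doublets -0.30.

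Whether these differences were also present in neighbouring stages was read from the same log2 ratios within precursor, early committed and mature nuclei, for genes that held 100 UMIs or more in a stage. In the CBP-ablated library Nkain2 was higher in all 4 stages, at 1.27, 1.28, 1.56 and 0.66 from precursor to mature, and so was Spag5, at 1.18, 1.25, 1.53 and 1.56. Mbp was at 2.13, 1.26, 0.99 and 0.20, furthest above the control in precursors and nearest to it in mature nuclei. Grm7 was at 1.36, 1.57, 1.00 and 0.27.

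Kcnd2 and Egfem1 had another pattern. Kcnd2, a precursor-rich gene, had ratios of -0.01 in precursors and -0.18 in early committed nuclei, against 1.38 in newly forming nuclei and 0.67 in mature ones. Egfem1 had ratios of -1.17 in precursors, -0.05 in early committed and 1.79 in newly forming nuclei. For both genes the interval in newly forming nuclei did not overlap those in the 2 earlier stages. Both were named for their ratio in newly forming nuclei, which favours a high value there.

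Edil3, Nrg1, Sgcd and Brinp1 were taken from the 10 smallest ratios in newly forming nuclei, a choice that by itself favours the lowest value in that stage. Edil3 was at -0.76, -1.70, -2.94 and 0.00 from precursor to mature, and in mature nuclei its level was 1192 CPM in the control and 1194 CPM in the CBP-ablated library. Nrg1 was at -0.52, -1.60, -2.46 and -0.85, Sgcd at -0.57, -1.16, -2.16 and -0.07, and Brinp1 at -0.73, -0.95, -2.11 and -0.37. Over the precursor list the medians were -0.24, -0.26, -0.78 and 0.00 in the 4 stages, where those of all genes were 0.14, 0.13, 0.11 and 0.10. Frmd4a was furthest below the control in mature nuclei, at -1.50.

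In the p300-ablated library Neat1 was higher in all 4 stages, at 1.22, 0.71, 1.10 and 1.08 from precursor to mature, as were Tmem117, at 0.87, 0.83, 1.89 and 1.05, and Spag5, at 0.95, 0.81, 1.40 and 1.71. Genes of the newly formed list had a median of -0.44 in early committed nuclei, with 18 of 18 below 0, where the median of all genes was 0.03 and 45.0% were below 0. Their median was -0.24 in mature nuclei (all genes 0.09) and 0.08 in newly forming nuclei (all genes 0.06). Grm7 had ratios of -1.81 in early committed, -0.05 in newly forming and -1.07 in mature nuclei. Zfp536 had ratios of -1.02 in early committed nuclei and 0.96 in newly forming ones, and their intervals did not overlap. Zfp536 was named for its ratio in newly forming nuclei, which favours a high value there.

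**Figure D5:**
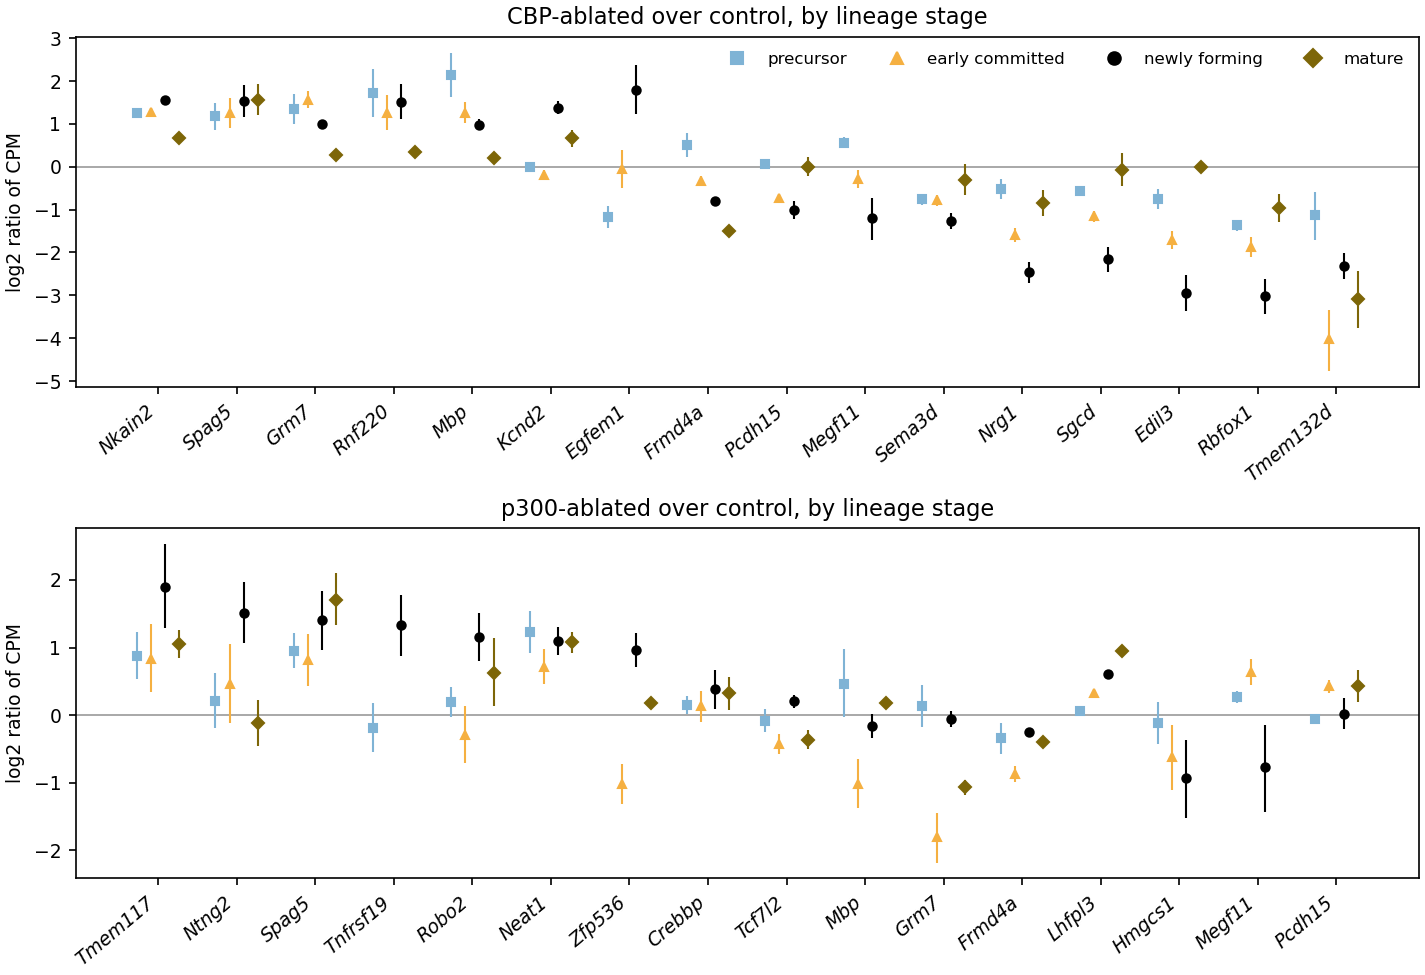
Log2 ratio of CPM (vertical axes) of the CBP-ablated (top) and p300-ablated (bottom) library over the control for 16 genes each, with a symbol for each lineage stage and vertical lines for the 95% counting intervals. Points with under 100 UMIs are not drawn. The values differ between stages: Edil3 goes from -2.94 in newly forming to 0.00 in mature nuclei of the CBP-ablated library.

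The floxed genes themselves were not lower in the newly forming nuclei of their own library. Crebbp was at 276 CPM in the control, 403 in the CBP-ablated (log2 ratio 0.55, interval 0.32 to 0.77) and 359 in the p300-ablated nuclei (0.38, 0.09 to 0.67). Ep300 was at 119, 150.5 (0.34, -0.01 to 0.69) and 146 CPM (0.29, -0.17 to 0.74). In each allele 1 exon is floxed, and the counts are summed over the whole gene, introns included, so a level does not show whether that exon was removed. For Ep300 the study cites earlier work on this mouse line for a loss of mature mRNA and protein after recombination. The Ep300 level here did not show a loss. The study reports that CBP and p300 were removed in its differentiating cultures. For CBP it shows antibody staining, in which CBPf/f neurospheres given Cre did not express the protein. The counts do not separate spliced from unspliced RNA, so whether mature Ep300 mRNA was lost was not tested. Over all acetyltransferases measured the medians were 0.09 in both comparisons, with none of 11 and none of 10 past 2-fold.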

How the data were processed

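Single nuclei of 3 neurosphere libraries, 1 per condition, were captured with droplet 3′ chemistry. The authors deposited, for each library, a filtered matrix of raw UMI counts per gene and nucleus. The submitters' processing notes name FastQC 0.11.9, Cell Ranger 3.1 and Seurat 2.3.4. Gene positions are those of GENCODE M21 on GRCm38, and promoter sequences those of RefSeq on GRCm38.p6.

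Stages were cut from raw counts, and counts were summed over the nuclei of a stage and library. Genes that held 100 UMIs or more over the libraries compared were ranked by log2 ratio of CPM, and the text names the 10 largest and the 10 smallest, the 10 leading genes of the stage, and members of the lists that passed 2-fold or are known for the stage. The members of the stage and the gene lists were chosen with earlier results of these data known. Intervals are 95%: Clopper-Pearson for shares, Newcombe for differences of shares, and a conditional binomial for ratios. They cover counting error only. The totals were 16312170, 12748336 and 18876682 UMIs for control, CBP and p300, and 3 UMIs in newly forming nuclei correspond to 3.61, 2.01 and 5.99 CPM. Doublets were called with Scrublet in scanpy 1.11.5 at 0.8% per 1000 nuclei on genes found in at least 5 nuclei, and were kept in the values given first.

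Alternatives left out doublets, moved the limits on Enpp6, late genes or depth, weighted nuclei equally or to the control's late-gene groups, centred ratios, changed the filter on UMIs, subtracted free RNA, and left out each gene's top nucleus. Python 3.11.15 was used with numpy 2.4.6, scipy 1.17.1, pandas 2.3.3 and matplotlib 3.10.9. The log2 ratios and the intervals of ratios and shares were checked on counts simulated under the models they assume. Those counts held no added variation between nuclei, and the other steps were not simulated. Mitochondrial genes and a few other genes are not reported here.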

Additional observations from a re-analysis of the deposited data

How the results depend on the processing

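None of the 45 ratios past 2-fold that were followed through the alternatives (24 for CBP, 21 for p300) changed sign, nor did any difference in share. Of these ratios 15 (2 and 13) came under 2-fold in at least 1 alternative. The text names further CBP ratios past 2-fold that were not followed, so nothing is said of those here. Of the alternative values of shares, counts of genes and main list medians, 17 moved and 123 did not. Counts that moved changed by over 1.5 times, and differences in share left the first value's interval. A list median was counted as moved when it left the counting interval of the list's middle gene or genes, as the precursor list's median did. That interval is not an interval of the median itself. The difference in share between CBP-ablated and control, 5.99 points, was 4.30 with under 2 late UMIs allowed and 4.76 after thinning. That between p300-ablated and control, -1.46 points, was -2.61 after thinning, -10.1 among lineage nuclei, -2.58 outside astrocyte nuclei and -8.18 among nuclei with 4000 to 6000 UMIs, an alternative added after the data were seen. Of the genes past 2-fold in the CBP-ablated nuclei, 43 higher and 83 lower, 26 were higher with at least 3 UMIs of Enpp6, 155 lower with at least 20 UMIs required in each library, and 1255 higher and 3305 lower with no filter on UMIs, while 117 were lower after centring and 123 with free RNA subtracted. In the p300-ablated nuclei, with 17 higher and 13 lower, 10 were higher after centring and 46 with at least 20 UMIs in each library, 7 were lower with under 2 late UMIs and 28 with 10% free RNA subtracted, and 3236 were higher and 1164 lower with no filter. The precursor list's median in the CBP-ablated nuclei, -0.78, was -0.51 with at least 3 UMIs of Enpp6. The causes were not tested, apart from the filters' own number of genes. The genes shared with the first counts were fewest with at least 3 UMIs of Enpp6 for CBP (22 of 43 higher, 54 of 83 lower), and for p300 with that limit or without called doublets (9 of 17 higher) and 4 of 13 lower with under 2 late UMIs. No paired analysis was possible because each condition had 1 library. No library could be left out for the same reason.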

Other observations

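Genes of the cytoskeleton and of process outgrowth had a median log2 ratio of 0.10 over 17 genes in the CBP-ablated newly forming nuclei, with 1 past 2-fold in each direction. Over all genes the median was 0.11, with 1.24% past 2-fold higher and 2.39% lower. Mapt, the microtubule-binding protein tau, was at 989 CPM in the control, 461 with CBP ablated (-1.10, -1.25 to -0.95) and 844 with p300 ablated (-0.23, -0.40 to -0.06). Kif5a, a kinesin motor, was at 27.7 CPM in the control and 60.9 CPM in the CBP-ablated nuclei (1.14, 0.46 to 1.86). In the p300-ablated nuclei that list's median was 0.07 over 15 genes, with none past 2-fold.

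Few genes of 2 other lists could be measured in these nuclei. Of 26 genes that hold differentiation back (Notch, Id, Wnt and Lingo genes), 3 had enough UMIs in each comparison, with medians of -0.06 for CBP ablation and -0.02 for p300 ablation. Of 23 p53 targets and genes of cell death in immature oligodendrocytes, 6 and 2 had enough UMIs, with medians of 0.13 and 0.29. No gene of either list was past 2-fold. The p300 median of the p53 list was 0.80 with at least 3 UMIs of Enpp6 and 0.93 with under 2 late UMIs. With at least 20 UMIs required in each library it was -0.30, so its sign was not stable.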
